A study of Mus musculus with 20 samples.

Results

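Colorectal tumors of mice that lacked Erbb2 in the intestinal epithelium were compared with tumors of littermates that kept the gene. The comparison rests on 10 of the 20 RNA-seq libraries of the study: the 5 labelled as Erbb2-deficient tumors and the 5 labelled as control tumors, chosen by genotype and tissue alone. All mice were C57BL/6J, were 100 days old and carried ApcMin/+, a truncating allele of the Wnt pathway suppressor Apc that gives rise to intestinal tumors. All were also Erbb2 f/f, so both alleles of Erbb2 were floxed in the controls too. The deficient mice alone carried Tg(Vil1-cre), a cre recombinase driven by the villin promoter in intestinal epithelial cells, and the control genotype is called WT in the labels. Cells of the stroma, vessels, muscle and immune system in the same tumor are therefore not targeted, and the genotypes also differ by the cre transgene itself. Tumors and adjacent tissue carry the same replicate numbers, but it is not stated that equal numbers mark one mouse or litter.

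ERBB2 is a receptor tyrosine kinase of the epidermal growth factor receptor family. It has no known ligand of its own and signals as the partner of EGFR, ERBB3 or ERBB4 when these bind ligands such as epiregulin, amphiregulin or the neuregulins. The paired receptors feed the MAPK cascade, whose output includes FOS-family and ETS-family transcription factors, and the PI3K and AKT pathway. In the gut the family is best known for its part in crypt growth, repair and the outgrowth of tumors.

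Depth and strand bear on every value. The tumors held 1071737 to 1471477 counts on genes, which was 2.55% to 3.06% of their reads, and 81.9% to 85.1% of reads fell on no counted feature. The mitochondrial ND6 row, for the one mitochondrial protein gene on the strand opposite to the others, held 20350 to 32690 CPM (counts scaled to a library of equal size), whereas the other 12 mitochondrial protein rows together held 802.5 to 3787 CPM (values not divided by gene length). The pattern is that of a table counted on the strand opposite to the transcripts, and a row is therefore described here by its symbol, with the genes that have an annotated exon on its opposite strand where these bear on it. Of the 46329 rows, 6686 had such an exon. For rows with none, whether the reads come from the named gene was not tested.

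Control tumors 2 and 3 stood apart from the others. In a principal component analysis of the 10 tumors, control tumor 2 had a score of 142 along component 1 (54.6% of variance), where the other 9 scored between -19.5 and -10.4. Along component 2 (15.8% of variance), control tumor 3 scored -66.1. The 11 pan-epithelial rows together reached 17.3 normalized CPM in control tumor 2 and 305.8 to 734.8 in the other 9, and its Epcam, Cdh1, Krt8 and Krt18 rows were at 0 counts. All 10 goblet cell rows were at 0 in control tumor 2. The rows opposite B cell genes summed to 675 normalized CPM there and to 7.36 to 21.2 elsewhere, and those opposite MHC class II genes to 2401 against 17.5 to 46.7. The 14 T and NK cell rows summed to 76.3 against 0.847 to 2.98, with 3 of them at 0 in every tumor. Control tumor 3 had the highest goblet cell sum, at 617 normalized CPM against 0 to 370, and the highest absorptive colonocyte sum, at 166 against 2.72 to 84.9. Its smooth muscle sum was 613 against 185 to 316. In these bulk samples, fewer cells of a type and less RNA per cell cannot be told apart. Where a pair of log2 differences is given for a row or a list, the first is with all libraries and the second without control tumors 2 and 3 (5 tumors against 3).

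**Figure D1:**
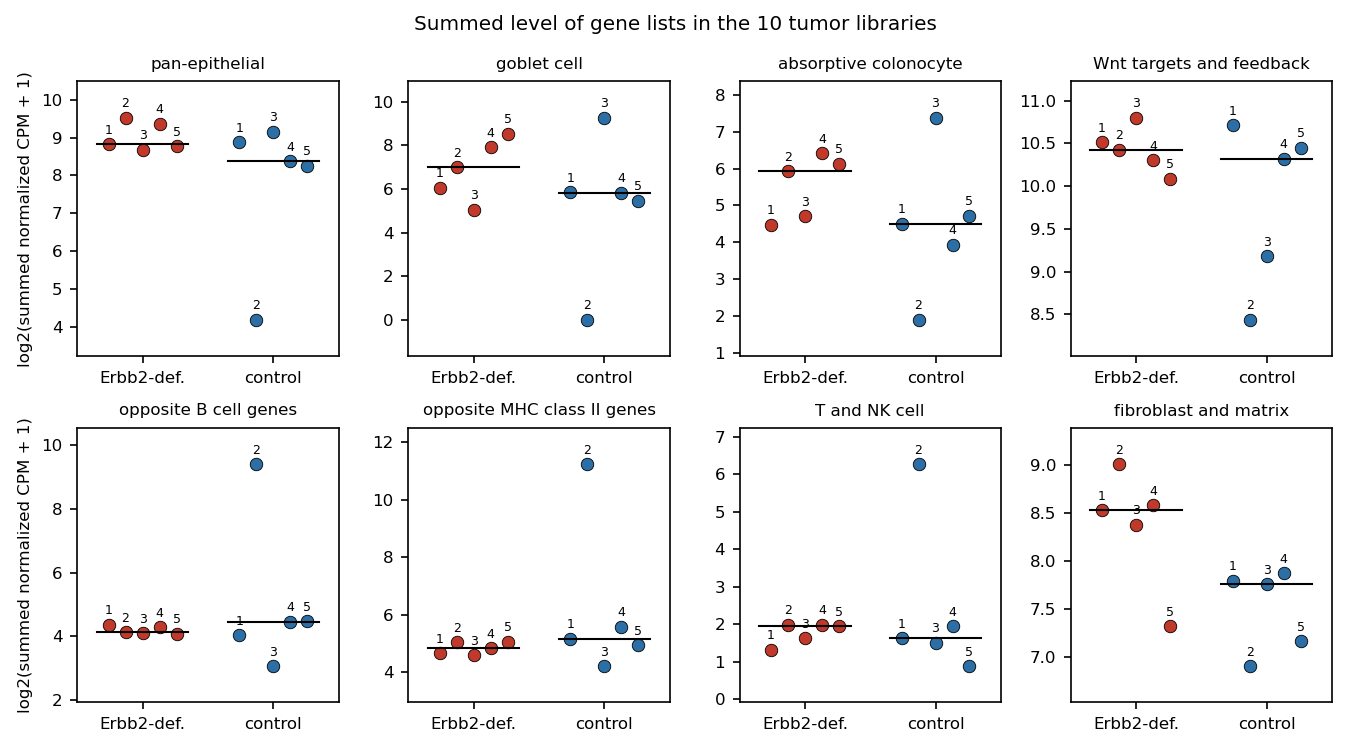
Summed normalized CPM of 8 gene lists in each tumor, as log2(sum + 1), with replicate numbers beside the points and the group median as a line; a panel titled "opposite" sums the rows on the opposite strand of the list's genes. Control tumor 2 is lowest in the epithelial panels and highest in the 3 immune panels, and control tumor 3 is highest for goblet and colonocyte rows.

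No row differed between Erbb2-deficient and control tumors at an adjusted p under 0.05 in edgeR's quasi-likelihood test. With all libraries, 0 of 7119 tested rows (0%) passed, the smallest adjusted p was 0.180, and 817 rows (11.5%) had an unadjusted p under 0.05. Of these, 249 (3.5%) were higher and 568 (7.98%) lower in Erbb2-deficient tumors. DESeq2 on the same libraries called 26 of 7009 rows (0.371%), 5 higher (0.0713%) and 21 lower (0.3%). Without control tumors 2 and 3, edgeR called 0 of 7946 rows (0%) with a smallest adjusted p of 0.529. There 681 rows (8.57%) had an unadjusted p under 0.05, of which 425 (5.35%) were higher and 256 (3.22%) lower, so that the balance of directions turned. DESeq2 called 3 of 7942 rows (0.0378%) in that comparison, all lower. limma with sample weights called 0 rows in both.

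The lower rows with all libraries were largely those that stood out in control tumor 2. Of the 568 lower rows, 301 (53%) were over 2-fold higher in control tumor 2 than in any other tumor, against 7.82% of all rows tested. The same was true of 18 of the 21 rows that DESeq2 called lower. Of the 249 higher rows, 144 (57.8%) had their lowest value in control tumor 2, against 34.5% of all rows. Of the 7119 rows tested in both comparisons, which share their libraries, 253 had an edgeR unadjusted p under 0.05 in both. Of these, 127 were higher in both, 120 were lower in both, and the rest differed in sign.

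The Erbb2 row does not check the deletion. It held 1 to 11 counts per tumor, and Mien1 exons lie on its opposite strand. Its level was 4.44 ± 2.87 normalized CPM (SD, n = 5) in Erbb2-deficient tumors and 4.31 ± 2.30 (n = 5) in controls. The fitted log2 difference of the Erbb2 row was 0.02 ± 0.60 (SE; edgeR adjusted p = 0.994) with all libraries and -0.16 ± 0.62 (adjusted p = 0.944) without control tumors 2 and 3. Exons of Erbb2 and of the predicted gene Gm12352 lie in turn opposite the Mien1 row. Which of them gives its reads was not tested. Mien1 read 150, 163, 124, 93.8 and 18.01 normalized CPM in Erbb2-deficient tumors 1 to 5, and 256, 3.63, 115, 148 and 203 in control tumors 1 to 5. The groups overlapped, with the lowest value in control tumor 2 and the next lowest in Erbb2-deficient tumor 5, and the log2 difference of Mien1 was -0.41 ± 0.65 (edgeR adjusted p = 0.883), or -0.84 ± 0.53 (adjusted p = 0.639) without control tumors 2 and 3. Which exons are deleted is not given in the sources used here.

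Rows of the neighbours of Erbb2 on the chromosome stood apart in control tumor 2. Grb7, which encodes an adaptor that binds activated ERBB2, read 0.847 to 5.97 normalized CPM in 9 tumors and 50.8 in control tumor 2. Ikzf3, which encodes the lymphoid transcription factor Aiolos, read 1.90 to 11.04 in 9 tumors and 107 in control tumor 2. The log2 difference of Grb7 was -1.53 ± 0.74 with all libraries and 0.36 ± 0.63 without control tumors 2 and 3, and that of Ikzf3 was -2.16 ± 0.90 and 1.04 ± 0.75 in that order, so both differed in sign between the comparisons. The 1700003D09Rik row, opposite Ppp1r1b, read 2316 to 3599 normalized CPM in 9 tumors and 0 in control tumor 2, with log2 differences of 0.09 ± 0.74 and -0.28 ± 0.25. Ppp1r1b, which encodes the phosphatase inhibitor DARPP-32, had a log2 difference of 0.98 ± 0.45 (edgeR adjusted p = 0.408) with all libraries and 0.57 ± 0.37 (adjusted p = 0.642) without those 2.

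Among ligands, the row with the largest fitted difference was Gm19610, which lies opposite Ereg, the gene of the ERBB ligand epiregulin. Gm19610 read 52.9, 67.9, 99.9, 108 and 22.3 normalized CPM in Erbb2-deficient tumors 1 to 5, and 7.68, 0, 20.2, 24.8 and 20.3 in control tumors 1 to 5. Erbb2-deficient tumors 1 to 4 were above every control, and Erbb2-deficient tumor 5 lay inside the control range. The log2 difference of Gm19610 was 2.27 ± 0.69 (edgeR unadjusted p = 0.00342, adjusted p = 0.201) with all libraries and 2.04 ± 0.64 (unadjusted p = 0.00445, adjusted p = 0.572) without control tumors 2 and 3. Over 21 other settings with all libraries, the value of Gm19610 stayed between 1.85 and 2.53, with adjusted p from 0.113 to 0.684 by the tool used. Without control tumors 2 and 3, 2 settings called it: edgeR with no filter on low counts (adjusted p = 0.0140) and DESeq2 on the tumor libraries alone (adjusted p = 0.0255). In adjacent tissue the same row averaged 6.83 normalized CPM in deficient and 4.82 in control libraries, and its genotype difference there did not differ from that in tumors beyond error (edgeR interaction adjusted p = 1). Ereg's own row held at most 6 counts in any tumor and was not tested. The rows of the ligands Egf and Nrg3 were at 0 counts in every tumor, and Tgfa, Areg and Hbegf were not tested.

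No row of a receptor or inhibitor passed the test. Egfr read 6.80, 12.7, 8.38, 8.93 and 16.6 normalized CPM in Erbb2-deficient tumors and 4.89, 0.908, 17.5, 3.81 and 6.78 in controls, with its highest value in control tumor 3. The log2 difference of Egfr was 0.66 ± 0.49 (edgeR adjusted p = 0.654) and, without control tumors 2 and 3, 1.07 ± 0.46 (adjusted p = 0.572), where the groups did not overlap. Rows whose groups did not overlap made up 151 of 7119 (2.12%) with all libraries, of which 66 (0.927%) were higher and 85 (1.19%) lower. Without control tumors 2 and 3 they made up 789 of 7946 (9.93%), 349 higher (4.39%) and 440 lower (5.54%). Erbb3 held 1 to 9 counts and Erbb4 none, and neither was tested. Lrig1, which encodes a membrane protein that promotes ERBB receptor turnover, had log2 differences of -0.26 ± 0.24 and -0.36 ± 0.27, and the Slc25a26 row opposite it -0.71 ± 0.42 and -0.92 ± 0.43 (edgeR adjusted p of Slc25a26 0.550 and 0.577). The row of the neuregulin gene Nrg4, with Fbxo22 exons opposite, differed by -0.07 ± 0.16 and -0.16 ± 0.18, and the Fbxo22 row by -0.39 ± 0.41 and -0.41 ± 0.45.

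MAPK output rows were fitted higher without passing the test. Of 18 listed genes, 6 were tested with all libraries and all 6 had positive log2 differences, with a median of 0.39 beside -0.01 over all rows tested. Without control tumors 2 and 3, 9 were tested, including those 6, and all 9 were positive, with a median of 1.005 beside 0.10. Of the 9, 2 had an unadjusted p under 0.05, and 5.35% of all rows were higher at that level. Over all rows tested, 3492 of 7119 were positive with all libraries and 4576 of 7946 without those 2 controls. The 6 MAPK rows with no opposite exon had a median of 1.20 there, beside 0.25 over all such rows, of which 2172 of 3230 were positive. Fos, an immediate early gene, read 0.756 to 14.1 normalized CPM in deficient tumors and 0.908 to 11.04 in controls, and its log2 differences were 0.85 ± 0.61 and 1.34 ± 0.67. Etv4, an ETS factor induced by MAPK signalling, gave 0.66 ± 0.62 and 1.26 ± 0.56. Phlda1, with an exon of the predicted gene Gm28592 opposite, gave 0.45 ± 0.47 and 0.14 ± 0.37. Of the 2 tested rows opposite this list, 1 was positive and 1 negative. Ccdc85b, opposite Fosl1, gave 1.005 ± 0.61 and 0.61 ± 0.54. LTO1, opposite the cyclin D1 gene Ccnd1, gave -0.22 ± 0.23 and -0.43 ± 0.20. LTO1 read 1702 to 2944 normalized CPM in deficient tumors and 1339 to 4033 in controls. In the PI3K list only 2 of 14 genes were tested with all libraries, and the Akt1 row, for a kinase of that pathway, gave 0.65 ± 0.29 and 0.65 ± 0.33 (edgeR adjusted p = 0.392 and 0.584).

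The 12 named higher rows of smallest p each had a mean of at least 5 normalized CPM. Without control tumors 2 and 3 all 12 held in direction, with log2 differences of 0.89 to 2.05. The 12 named lower rows did so too, at -0.67 to -1.68. The 2 comparisons share libraries, so this was no independent check. With all libraries 10 of the 12 higher rows, which that comparison chose, did not overlap between the groups. Il1bos, the row opposite the interleukin 1 beta gene Il1b, read 16.6, 15.7, 23.7, 16.4 and 10.8 normalized CPM in Erbb2-deficient tumors and 2.09, 0, 6.44, 7.62 and 3.39 in controls. Every deficient tumor was above every control. Il1bos held 15 to 34 counts in deficient tumors and 0 to 8 in controls. Among tumors it thus reached the minimum count of 10 only in deficient ones, and the separation lends its difference no further support. The log2 difference of Il1bos was 2.09 ± 0.51 (edgeR adjusted p = 0.180; DESeq2 adjusted p = 0.0160), and 1.99 ± 0.50 (edgeR adjusted p = 0.529; DESeq2 adjusted p = 0.269) without control tumors 2 and 3. In adjacent tissue Il1bos averaged 1.99 normalized CPM in deficient and 0.365 in control libraries, a log2 difference of 2.23 ± 0.89. Gm14023, the row opposite the related cytokine gene Il1a, read 26.4, 53.7, 142, 72.9 and 9.37 in deficient tumors and 13.3, 17.2, 9.20, 36.2 and 22.9 in controls, with a log2 difference of 1.63 ± 0.60 and, without control tumors 2 and 3, 1.38 ± 0.66. The highest values were in deficient tumors 3 and 4, but deficient tumor 5 was among the lowest of all. Rows of myeloid and inflammation genes under their own symbols showed no common rise. Of 20 listed genes 4 were tested, with 2 positive and 2 negative (median 0.07). Without control tumors 2 and 3, 1 was positive and 3 were negative (median -0.15). The Il1a row itself gave -0.03 ± 0.27 and -0.12 ± 0.30.

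Nfkbia, which encodes the NF-kappaB inhibitor IkappaB alpha, read 9.07, 10.4, 7.68, 16.4 and 7.21 normalized CPM in Erbb2-deficient tumors and 2.79, 4.54, 5.52, 1.90 and 2.54 in controls, with no overlap. The difference for Nfkbia was 1.53 ± 0.41, and 2.05 ± 0.52 without control tumors 2 and 3 (edgeR adjusted p = 0.180 and 0.529). Dync1h1, the heavy chain of cytoplasmic dynein, with exons of the predicted genes Gm35558 and Gm17111 opposite, read 21.2, 29.8, 22.4, 34.2 and 25.9 in deficient tumors and 14.7, 9.08, 10.1, 8.57 and 11.9 in controls. The fitted difference for Dync1h1 was 1.28 ± 0.29 (edgeR adjusted p = 0.180; DESeq2 adjusted p = 0.0190), the smallest unadjusted p of the table, and 1.21 ± 0.35 (edgeR adjusted p = 0.529; DESeq2 adjusted p = 0.268) without control tumors 2 and 3. Rin2, a RAB5 exchange factor of early endosomes, read 12.1, 14.2, 12.6, 10.4 and 10.1 against 4.19, 0.908, 6.44, 5.71 and 1.69, with log2 differences of 1.63 ± 0.39 and 1.65 ± 0.43 (DESeq2 adjusted p = 0.0424 and 0.281). B9d1, a protein of the ciliary transition zone, differed by 2.001 ± 0.51 and 2.03 ± 0.55 (DESeq2 adjusted p = 0.0439 and 0.268). The DESeq2 calls of Il1bos, Dync1h1, Rin2 and B9d1 were thus lost without control tumors 2 and 3. The remaining named higher rows were Mgp, Srrm1, Cers6, Arfgef1, Afg3l2, Rab7 (Gm5577 exon opposite) and Eif4g2, with log2 differences of 0.88 to 1.74. They were low rows: over the 12, the mean in deficient tumors was 8.62 to 29.8 normalized CPM. Il1bos, Nfkbia, Rin2 and B9d1 were also among the 12 named higher rows without control tumors 2 and 3, beside Hk2, Rgs3, Gas6 (Tmem255b exon opposite), Bcas1os2 (opposite Bcas1), Myh10, Afdn (Tcte2 exon opposite), Rnf11 and Plekha1. Of that set Hk2, the hexokinase of glycolysis, had a log2 difference of 2.31 ± 0.57 there. It was not tested with all libraries, where the count filter asks for more libraries. Hk2 held 12, 19, 8, 19 and 7 counts in deficient tumors and 3, 0, 6, 3 and 1 in controls. Among tumors it thus reached the minimum count of 10 only in deficient ones, and its entry to the test lends its difference no support. The same limit holds for Il1bos, Nfkbia, Rin2, B9d1, Cers6, Afg3l2 and Rgs3, which among tumors reached that count only in deficient ones. In Gas6, Bcas1os2 and Rnf11, control tumor 3 was above all 5 deficient tumors.

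**Figure D2:**
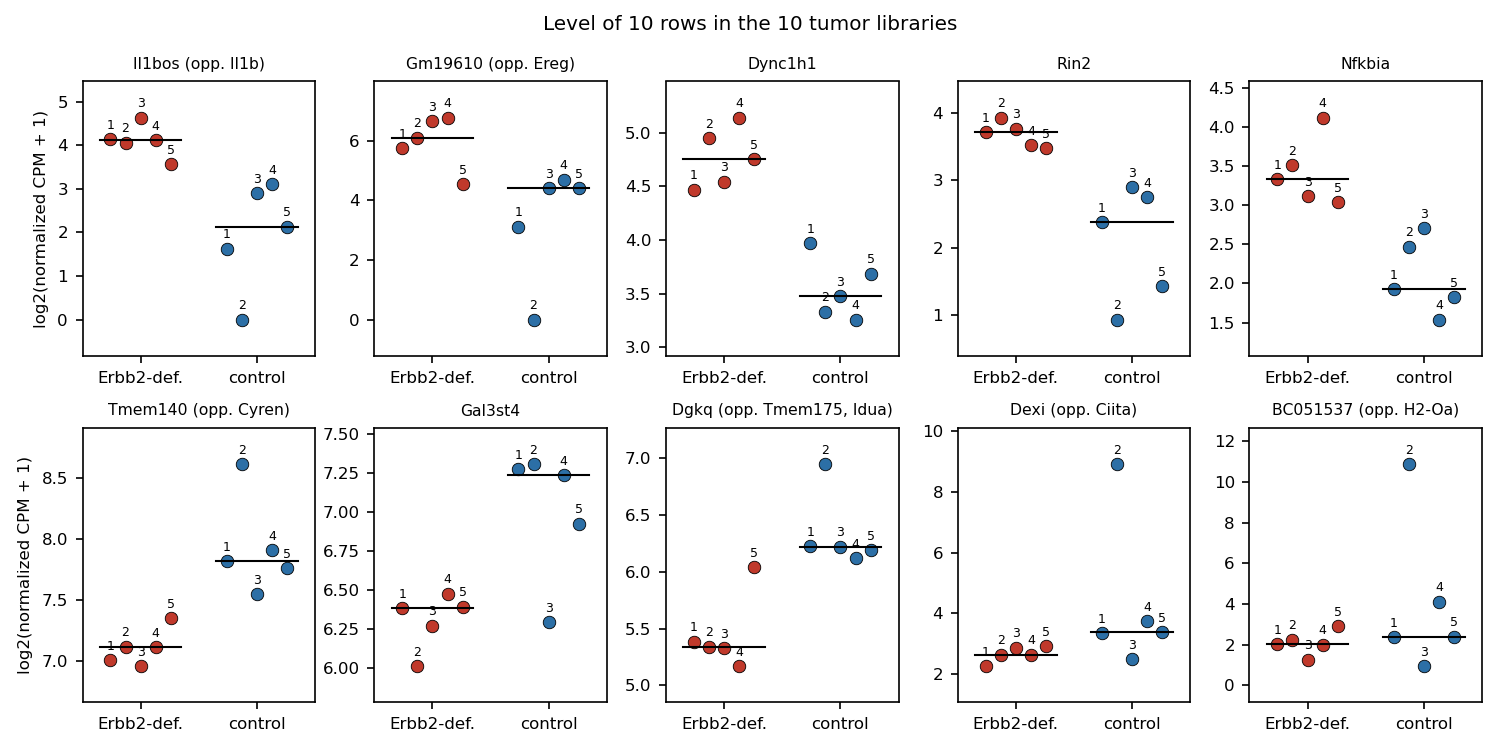
Normalized CPM of 10 rows in each tumor, as log2(CPM + 1), with replicate numbers and group medians as lines; "opp." names genes with an exon on the opposite strand. Il1bos, Dync1h1, Rin2, Nfkbia, Tmem140 and Dgkq do not overlap between the groups, and the Dexi and BC051537 panels differ through control tumor 2.

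The 12 named lower rows with all libraries were mostly marks of control tumor 2, which was over 2-fold above every other tumor in 10 of them. Dexi lies opposite Ciita, which encodes the transactivator of MHC class II genes, and read 3.78 to 6.48 normalized CPM in deficient tumors and 9.07, 482, 4.60, 12.4 and 9.32 in controls. Its log2 difference was -4.23 ± 1.05 with all libraries and -0.87 ± 0.50 without control tumors 2 and 3. BC051537, opposite H2-Oa, read 1873 in control tumor 2 and 0.920 to 16.2 in the other 9, with log2 differences of -6.71 ± 1.67 and -1.12 ± 1.03. A130010J15Rik, opposite the lymphocyte gene Traf3ip3, Palm3, opposite the cytokine receptor gene Il27ra, and 5830418P13Rik, opposite Bfsp2, had log2 differences of -6.28, -4.61 and -7.33 that became -1.68, -0.84 and -1.21. Prr33, Sec22c, Sp140 and Olfr99 had log2 differences of -2.40, -4.25, -4.36 and -3.76 that became -0.68, -1.17, -0.77 and -0.90.

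In 3 of these 12 rows, Tmem140, Dgkq and B4galnt1, the groups did not overlap with all libraries. Tmem140, opposite the DNA repair regulator gene Cyren, read 128, 138, 124, 138 and 163 normalized CPM in Erbb2-deficient tumors and 225, 391, 187, 240 and 216 in controls. Every deficient tumor was below every control. The log2 difference of Tmem140 was -0.87 ± 0.20 (edgeR adjusted p = 0.180; DESeq2 adjusted p = 0.0153) with all libraries and -0.68 ± 0.19 (edgeR adjusted p = 0.529; DESeq2 adjusted p = 0.0471) without control tumors 2 and 3. It was the 1 row among the 12 lower of both comparisons, and its adjusted p ran from 0.0153 to 0.684 over 21 other settings. In adjacent tissue its difference was -0.12 ± 0.20, with an interaction that did not pass the adjustment (edgeR unadjusted p = 0.0149, adjusted p = 1). Dgkq, a diacylglycerol kinase gene with Tmem175 and Idua exons opposite, read 40.8, 39.5, 39.1, 34.98 and 64.8 in deficient tumors and 74.0, 122, 73.6, 68.6 and 72.0 in controls. Its log2 difference was -0.90 ± 0.23 and, without control tumors 2 and 3, -0.67 ± 0.24 (DESeq2 adjusted p = 0.0292 and 0.295). B4galnt1, a ganglioside synthase gene with Slc26a10 exons opposite, read 1.51, 3.73, 4.19, 0.744 and 4.32 in deficient tumors and 9.07, 75.3, 26.7, 6.66 and 12.7 in controls. Control tumor 2 was the highest, but every control was above every deficient tumor. For B4galnt1 the log2 differences were -3.11 ± 0.77 (edgeR adjusted p = 0.180; DESeq2 adjusted p = 0.0160) and -1.64 ± 0.74 (edgeR adjusted p = 0.577; DESeq2 adjusted p = 0.457).

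Without control tumors 2 and 3, the 12 named lower rows had log2 differences from -0.52 to -1.30, and 10 of them had an exon of another gene opposite. Gal3st4, with a 6330418K02Rik exon opposite, read 82.4, 63.4, 76.1, 87.8 and 82.9 normalized CPM in deficient tumors and 154, 157, 77.3, 150 and 120 in controls. Control tumor 3 lay inside the deficient range, and the other 4 controls above it. The log2 difference of Gal3st4 was -0.81 ± 0.20 without control tumors 2 and 3 (edgeR adjusted p = 0.529; DESeq2 adjusted p = 0.0152) and -0.74 ± 0.20 with them (edgeR adjusted p = 0.180; DESeq2 adjusted p = 0.0368). Snx22, opposite the endoplasmic reticulum cyclophilin gene Ppib, gave -0.56 ± 0.15 there and -0.35 ± 0.18 with all libraries. Atp6v1c2, opposite the disulfide isomerase gene Pdia6, gave -1.30 ± 0.36 there and -0.97 ± 0.36 with all libraries. Lgi4, opposite the ion pump regulator gene Fxyd3, read 2153 to 2957 in deficient tumors and 4759, 0.908, 1343, 3920 and 3416 in controls. For Lgi4 the log2 difference was -0.66 ± 0.20 without control tumors 2 and 3 and -0.11 ± 0.73 with them. The named rows also included Tmem140, Scaf4, Lyl1, Usp34, Trmt2a, Meiosin and Ap4m1. Of the 12, 11 did not overlap between the 5 and 3 tumors, but 2 of the 12 did not overlap once control tumors 2 and 3 were counted. Rows in this set were chosen by that comparison.

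**Figure D3:**
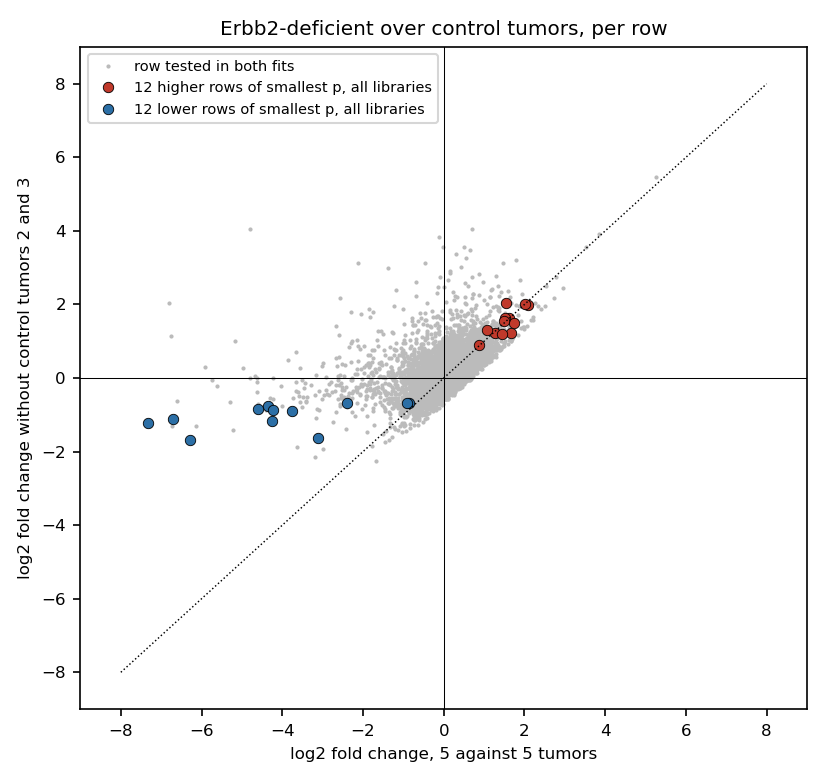
Log2 fold change (Erbb2-deficient over control tumors) of each row tested in both comparisons, with all 10 tumors on the x axis and without control tumors 2 and 3 on the y axis, with the dotted line at equality; colored points are the 12 named rows of smallest p in each direction. The higher rows lie near the line at 0.88 to 2.09, and 10 of the 12 lower rows lie far above it.

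Matrix and fibroblast rows under their own symbols were fitted higher together. Of 18 listed genes 12 were tested, all 12 had positive log2 differences in both comparisons, and the median was 0.998 beside -0.01 over all rows with all libraries and 0.87 beside 0.10 without control tumors 2 and 3. An unadjusted p under 0.05 was reached by 4 of the 12 with all libraries and by 3 without those 2, and none passed the adjusted test. Over all rows tested, 3.5% were higher at that level with all libraries and 5.35% without those 2. Positive rows made up 3492 of 7119 with all libraries and 4576 of 7946 without those 2. Mgp, a calcification inhibitor of the matrix, read 12.8, 13.4, 16.8, 12.7 and 7.93 normalized CPM in deficient tumors and 8.38, 0.908, 1.84, 1.90 and 5.93 in controls, with log2 differences of 1.67 ± 0.43 and 1.22 ± 0.43 (edgeR adjusted p = 0.180 and 0.572). Col6a2, a chain of microfibrillar collagen VI, read 20.4, 17.2, 14.7, 17.9 and 7.21 against 5.58, 2.72, 12.0, 8.57 and 5.93, with 1.15 ± 0.45 and 1.25 ± 0.49 (edgeR adjusted p = 0.319 and 0.572). The basement membrane collagen rows Col4a1 and Col4a2, each with an exon of the other opposite, gave 0.95 ± 0.40 and 0.92 ± 0.43 with all libraries and 0.89 ± 0.44 and 0.76 ± 0.46 without control tumors 2 and 3. The 1 tested row opposite a gene of the list was not fitted higher: Gm13372, opposite the collagen gene Col5a1, averaged 124 normalized CPM in deficient tumors and 126 in controls, with log2 differences of -0.02 ± 0.40 and -0.22 ± 0.30. Deficient tumors 1 to 4 were higher, and deficient tumor 5, at 159 summed normalized CPM over the list, lay among the controls (119 to 233). Smooth muscle rows had a median of 0.42, with 12 of 17 positive, and 0.65 with 16 of 17 positive without control tumors 2 and 3. Tpm1, an actin filament tropomyosin, gave 0.84 ± 0.40 and 0.65 ± 0.37, whereas the integrin row Itga7, with Mettl7b exons opposite, read 34.95 in control tumor 3 and at most 2.86 in the others. All 3 tested endothelial rows were fitted lower with all libraries, and 1 higher and 2 lower without control tumors 2 and 3. Eng, a coreceptor of TGF-beta with Fpgs exons opposite, gave -0.63 ± 0.34 and -0.58 ± 0.37, and Plvap, of the diaphragms of fenestrated capillaries, -0.27 ± 0.31 and 0.23 ± 0.33.

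Epithelial rows under their own symbols were fitted higher, by an amount that varied with the controls counted, whereas the most counted rows opposite pan-epithelial genes differed little. The 10 tested pan-epithelial rows were all fitted higher, with a median of 0.58, and 10 of 11 were positive with a median of 0.54 without control tumors 2 and 3. The 3 tested rows opposite pan-epithelial genes had medians of 0.02 and -0.09, beside -0.01 and 0.10 over all rows. Of these 3, Usp37, opposite the villin gene Vil1 and Cnot9, averaged 605 normalized CPM in deficient tumors and 667 in controls, with log2 differences of -0.14 ± 0.60 and -0.09 ± 0.22. Wbscr25, opposite the claudin gene Cldn3, averaged 689 and 681, with log2 differences of 0.02 ± 0.66 and -0.13 ± 0.23. Both were far more counted than the rows of Vil1 and Cldn3 themselves, which averaged 24.1 and 35.97 in deficient tumors. Krt8, a keratin of simple epithelium with a Gm36026 exon opposite, read 70.3, 125, 76.1, 144 and 75.7 normalized CPM in deficient tumors and 63.5, 0, 119, 52.4 and 44.0 in controls. For Krt8 the log2 difference was 0.82 ± 0.56 with all libraries and 0.92 ± 0.29 without control tumors 2 and 3 (edgeR adjusted p = 0.623 and 0.572). Cdh1, the gene of E-cadherin, gave 1.14 ± 0.55 and 0.98 ± 0.45, and Epcam gave 0.84 ± 0.56 and 0.61 ± 0.33. Goblet cell rows had a median of 0.57 with 6 of 8 positive, and 1.16 with 8 of 8 positive without control tumors 2 and 3. Agr2, a disulfide isomerase needed for mucin production, read 5.29, 5.97, 1.40, 13.4 and 15.1 in deficient tumors and 1.40, 0, 20.2, 1.90 and 1.69 in controls, so that the highest and the lowest value both belonged to controls. Its log2 difference was 0.73 ± 0.73, and 2.30 ± 0.70 without those 2. Among goblet genes, Tff3 gave 0.88 ± 0.67, Fcgbp 0.75 ± 0.62 and Spink4 0.83 ± 0.67 with all libraries. The values of Tff3, Fcgbp and Spink4 were 1.17 ± 0.73, 1.001 ± 0.57 and 0.88 ± 0.64 without control tumors 2 and 3. The absorptive colonocyte median was 0.15 (5 of 6 positive) and became 1.27 (10 of 10 positive), but over more rows. Car1, Cdhr2, Guca2a and Slc9a3 were tested only without control tumors 2 and 3. Slc26a3 and Car4 read 0 in control tumors 1, 4 and 5 and at most 2.23 and 2.98 in deficient tumors. All 10 rows had no opposite exon, and 2172 of 3230 such rows were positive there, with a median of 0.25. Of those under 20 normalized CPM, 1656 of 2284 were positive, with a median of 0.35. Krt20, a keratin of differentiated colonocytes, read 3.02, 11.2, 2.10, 10.4 and 10.1 in deficient tumors and 0, 0.908, 30.4, 1.90 and 1.69 in controls, with log2 differences of 0.11 ± 0.80 and 2.66 ± 0.78. Lyz1, the Paneth cell lysozyme, gave 1.27 ± 0.57 and 0.78 ± 0.53. Goblet and colonocyte sums differed among the deficient tumors themselves, at 32.1 to 370 and 21.2 to 84.9 normalized CPM.

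**Figure D4:**
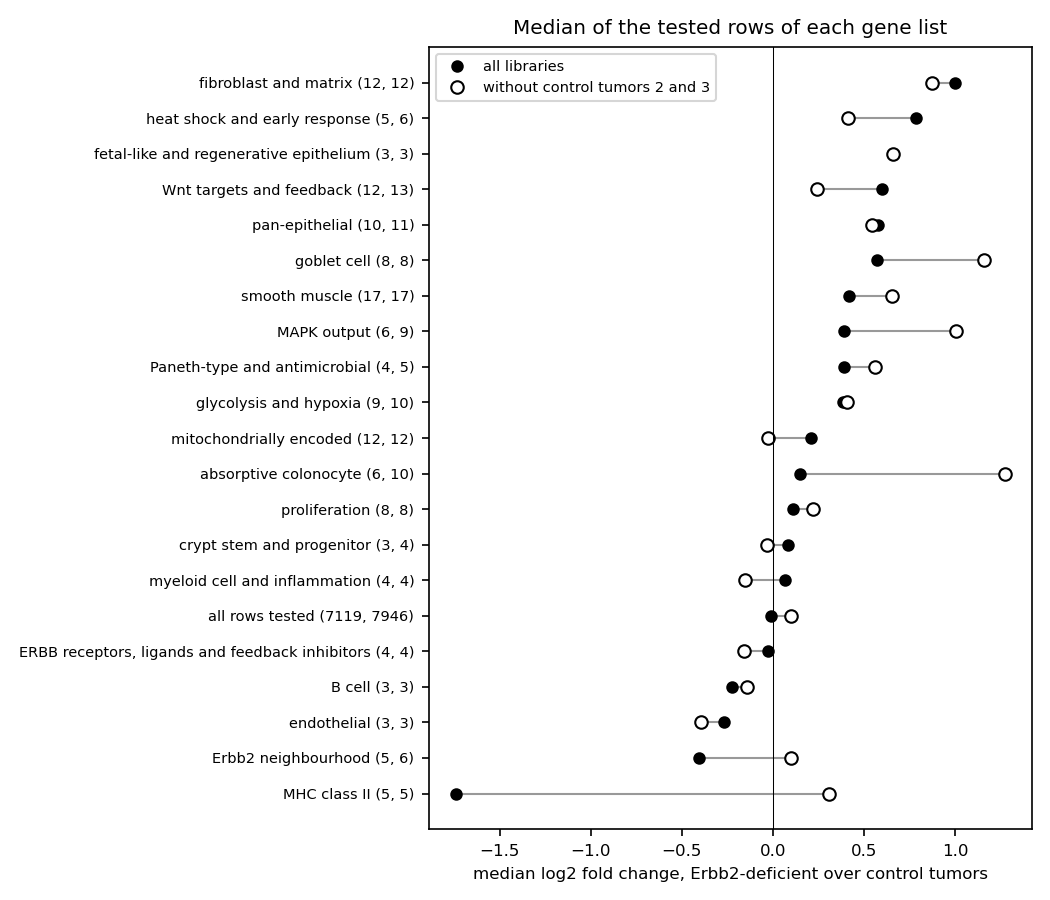
Median log2 fold change over the tested rows of each gene list, with all libraries (filled) and without control tumors 2 and 3 (open); the number of rows tested in each comparison is in parentheses. Fibroblast and matrix rows lie at 0.998 and 0.87, while the MHC class II median turns from -1.74 to 0.31 and the colonocyte median moves from 0.15 to 1.27 when the 2 controls are left out.

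Wnt target rows, known to be active where Apc is lost, were fitted higher mainly against control tumors 2 and 3. Of 20 listed genes 12 were tested and 10 were positive, with a median of 0.60, and without those 2 controls 11 of 13 were positive with a median of 0.24 beside 0.10 over all rows. Axin2, a feedback inhibitor of the pathway with a Gm11670 exon opposite, read 29.0 to 51.0 normalized CPM in deficient tumors and 40.5, 1.82, 1.84, 16.2 and 38.1 in controls. The secreted inhibitor gene Wif1 read 19.4 to 34.9 in deficient tumors and 34.2, 0, 0, 11.4 and 16.1 in controls. Their log2 differences were 0.99 ± 0.61 and 1.13 ± 0.73 with all libraries, and 0.35 ± 0.42 and 0.45 ± 0.43 without control tumors 2 and 3. Nkd1 gave 0.92 ± 0.60 and 0.34 ± 0.36, and Dkk2 0.98 ± 0.56 and 0.39 ± 0.39. Prox1os, the row opposite the Wnt target Prox1, gave 1.18 ± 0.68 and 0.58 ± 0.41. Among crypt progenitor rows, Rgmb gave -1.77 ± 0.67 and -1.84 ± 0.61 (edgeR adjusted p = 0.316 and 0.572), and Slc12a2 1.28 ± 0.54 and 0.88 ± 0.49 (edgeR adjusted p = 0.352 and 0.609). Rgmb held only 0 to 7 counts in deficient tumors and 0 to 12 in controls, and the groups overlapped. The median of that list was 0.08 over 3 rows with all libraries and -0.04 over 4 rows without control tumors 2 and 3.

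Proliferation rows showed no common direction with all libraries, with 4 of 8 positive and a median of 0.11, and 6 of 8 positive with a median of 0.22 without control tumors 2 and 3. Mki67 read 26.7 to 48.9 normalized CPM in deficient tumors and 22.7 to 35.6 in controls, with log2 differences of 0.30 ± 0.23 and 0.23 ± 0.27, and Top2a gave 0.63 ± 0.50 and 0.62 ± 0.57. Ccna2, which with Exosc9 shares overlapping exons on opposite strands, gave -0.19 ± 0.18 and -0.35 ± 0.19, and the Exosc9 row gave -0.34 ± 0.31 and -0.51 ± 0.28. Ccne1 read 335 in control tumor 2 and at most 2.86 in the other 9, and its log2 difference of -5.91 ± 1.55 became 0.30 ± 1.21 without control tumors 2 and 3. Glycolysis rows were positive in 6 of 9 with a median of 0.38. Without control tumors 2 and 3, where Hk2 was also tested, they were positive in 8 of 10 with a median of 0.41. Pkm, the pyruvate kinase gene, read 37.0, 69.4, 54.5, 66.2 and 24.5 in deficient tumors and 43.3, 12.7, 46.9, 11.4 and 16.9 in controls, with log2 differences of 0.93 ± 0.40 and 1.10 ± 0.41, and Ldha gave 0.53 ± 0.36 and 0.82 ± 0.40. The stress-response rows Junb and Jun, for AP-1 factors and each with an exon of another gene opposite, gave 0.79 ± 0.36 and 0.92 ± 0.46 with all libraries and 0.69 ± 0.40 and 0.63 ± 0.43 without control tumors 2 and 3.

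MHC class II rows differed in sign with and without control tumors 2 and 3. All 5 tested rows were fitted lower with all libraries, with a median of -1.74, and 4 of 5 were fitted higher without control tumors 2 and 3, with a median of 0.31. Cd74, the invariant chain gene, read 141 normalized CPM in control tumor 2 and 1.69 to 14.1 in the other 9. H2-Ab1 read 162 there and 4.24 to 14.7 elsewhere. Their log2 differences of -1.97 ± 0.82 and -2.28 ± 0.76 became 0.31 ± 0.60 and 0.01 ± 0.50. Ciita, with Dexi exons opposite, kept its sign: it read 308, 354, 276, 339 and 328 in deficient tumors and 470, 635, 325, 517 and 433 in controls. Its log2 difference was -0.57 ± 0.17, and -0.52 ± 0.17 without control tumors 2 and 3 (edgeR adjusted p = 0.206 and 0.572), with control tumor 3 inside the deficient range. Bcl9l, opposite the B cell chemokine receptor gene Cxcr5, read 501 in control tumor 2 and 6.44 to 16.2 elsewhere, and its log2 difference of -3.29 ± 0.94 became -0.18 ± 0.45.

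The libraries of the 2 genotypes also differed in how many rows they reached. At an equal depth of 1071737 counts, Erbb2-deficient tumors had 16045 to 16310 rows with at least 1 count and control tumors 14493 to 15321, with no overlap (two-sided exact permutation test, p = 0.00794, the smallest that 5 against 5 allows; 0.0159 after Benjamini-Hochberg adjustment over 10 such tests). The measure at equal depth was chosen after the data were seen. Adjacent libraries differed in the same direction, at 15473 to 16685 and 14322 to 15701 rows (exact permutation p = 0.0397, adjusted 0.0496). The 100 most counted rows took 33.7% to 35.9% of counts in deficient tumors and 36.7% to 42.5% in control tumors (exact permutation p = 0.00794, adjusted 0.0159). In adjacent libraries those shares overlapped, at 37.6% to 49.4% and 40.4% to 51.1% (exact permutation p = 0.595, adjusted 0.595). The TMM factors that scale every row were 1.096 to 1.162 in deficient tumors and 0.925 to 1.037 in control tumors (exact permutation p = 0.00794, adjusted 0.0159). In adjacent libraries they overlapped, at 0.905 to 1.07 and 0.837 to 1.001 (exact permutation p = 0.143, adjusted 0.159). Rows with no gene on the opposite strand took 6.90% to 7.45% and 5.73% to 7.06% of counts in tumors, and 6.49% to 7.39% and 5.61% to 6.51% in adjacent libraries (exact permutation p = 0.0159, adjusted 0.0227, in both). Tested rows of that class had a median log2 difference of 0.14 with all libraries and 0.29 without control tumors 2 and 3, whereas rows with an opposite exon had -0.08 and -0.02. Of the list medians above, that of the 8 matrix rows with no opposite exon was 1.09 with all libraries, beside 0.09 over all such rows and 0.16 over those under 20 normalized CPM. It was 0.89 without control tumors 2 and 3, beside 0.25 and 0.35. Wnt target rows with no opposite exon had medians of 0.52 and 0.29, and MAPK output rows 0.66 and 1.20. Pan-epithelial rows of that kind had 0.71 and 0.58, and goblet cell rows 0.73 and 1.165. Absorptive colonocyte rows had 0.15 and 1.27, and smooth muscle rows 0.40 and 1.07. Of all such rows, 1554 of 2725 and 2172 of 3230 were positive. The part of this difference between libraries in the higher rows and lists was not tested.

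**Figure D5:**
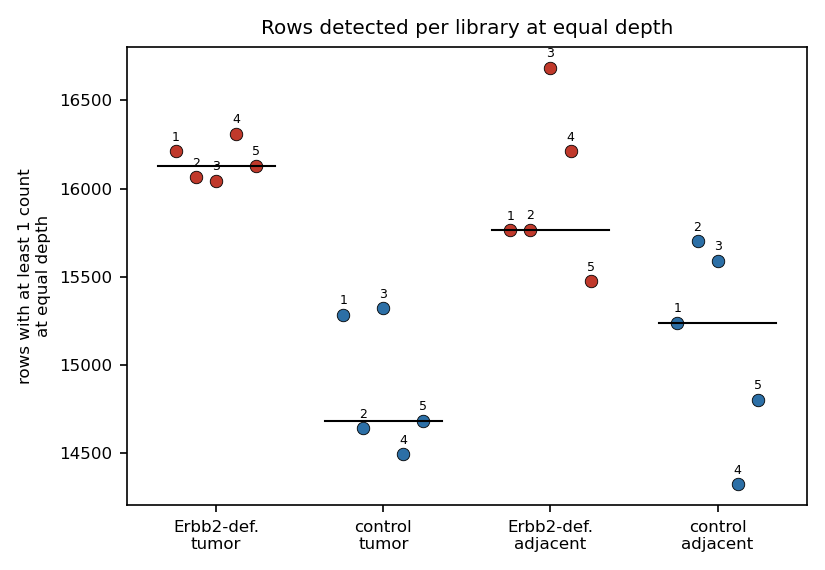
Rows with at least 1 count at an equal depth of 1071737 counts in all 20 libraries (y axis, not starting at 0), with replicate numbers and the group median as a line. Erbb2-deficient tumors lie at 16045 to 16310 and control tumors at 14493 to 15321.

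The Tsix row, opposite the X inactivation gene Xist, was 1114 normalized CPM in Erbb2-deficient tumor 5, 109, 469 and 1205 in control tumors 1, 2 and 3, and at most 0.756 in the other 6. The labels give no sex. With this row class as a term in the model, edgeR called 0 rows with all libraries and 0 without control tumors 2 and 3.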

How the data were processed

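RNA was taken with a Maxwell kit and sequenced from stranded mRNA libraries (TruSeq), per the labels' protocols. The authors deposited unnormalized counts by gene symbol, with a file for each library, and per the submitters' processing notes Trimmomatic, HISAT2 2.2.1, HTSeq 2.0.2, DESeq2 and build mm39 were used. No role or setting, strand included, is given in the sources used here. The 5 summary rows entered neither library sizes nor tests. The members and gene lists (26 lists, 356 genes) were chosen with earlier results of these data known.

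Counts were tested with edgeR 4.0.16 (R 4.3.3; filterByExpr at a minimum count of 10, TMM, robust quasi-likelihood F test, Benjamini-Hochberg over all rows tested, threshold 0.05) in a model of the 4 groups of genotype and tissue over 20 libraries, and again without control tumors 2 and 3. Normalized CPM are edgeR's cpm on TMM-scaled library sizes. An SE is the log2 difference over the square root of F. DESeq2 1.42.0 and limma 3.58.1 were alternatives. Adjusted p are edgeR's unless named. DESeq2 gave no adjusted p for rows with outlying counts. The edgeR fit was also run on simulated counts with planted differences. The outcome is not given here and backs no statement on the absence of calls. Further alternatives were RLE size factors, no filter or a minimum count of 20, a fit to tumors alone, non-robust dispersion, each tumor left out in turn, the replicate number as a block, the Tsix row class as a term, and only rows with no opposite exon.

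Opposite exons were found by symbol in GENCODE M21, an annotation of another build, used for names and overlaps only. No coordinates are given. Rows were named by rule: every tested ERBB-family and Erbb2-neighbour row, the 12 rows of smallest p in each direction and comparison with a mean of at least 5 normalized CPM (predicted genes skipped unless a named gene lies opposite), and up to 4 rows of smallest p per list. Krt20, Agr2 and other list rows come under the last part. 1 row so named is not reported here.

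Depth was 1071737 to 1471477 counts per tumor. No 2 tumors of the same genotype agreed within sampling noise (smallest chi-square per degree of freedom 5.01). Pairs of tumors across genotypes were not checked. Labels say biological replicates but not separate litters, so p-values measure the spread between these libraries.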

Additional observations from a re-analysis of the deposited data

Results flagged for a closer look

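Within groups of 5 tumors, 268 groups of values were checked (the named rows and the summed levels of the gene lists), and in 42 the highest or lowest tumor lay farther from the rest than Dixon's 95% limit of 0.71 of the range. For normally distributed values of rows chosen without regard to them, chance flags about 1 in 20 groups. The check used untransformed normalized CPM, whose rate of chance flags was not tested. Many of these rows were also named for a small p in these same tumors, so the rate of 1 in 20 does not apply to them. Rows that share a library are also not independent. Control tumor 2 was the highest of its group in 22 of these and control tumor 3 in 10. All values are normalized CPM.

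Control tumor 2 stood far above the other controls in rows with lymphoid or MHC class II genes opposite: A130010J15Rik (1241), Palm3 (1521), Dexi (482), BC051537 (1873) and Bcl9l (501.1). It did so too in Prr33 (1325), Sec22c (288.7), Sp140 (654.5), Olfr99 (142.5), 5830418P13Rik (310.5), Tmem140 (391.2), Dgkq (122.5) and Ccne1 (335). The same was seen for Grb7 (50.83), Ikzf3 (107.1), H2-Ab1 (162.5) and Cd74 (140.7). Its summed levels were far above for the rows opposite B cell genes (675.4), T and NK cell rows (76.25), MHC class II rows (1311), the rows opposite MHC class II genes (2401) and interferon response rows (194.3). Its Exosc9 row was far below (408.5).

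Control tumor 3 stood above the other controls in Gas6 (21.15), Bcas1os2 (161), Afdn (11.04), Rnf11 (45.07), Agr2 (20.23), Krt20 (30.35) and Itga7 (34.95). Its goblet cell (617.2), absorptive colonocyte (165.6) and smooth muscle (612.6) sums were also the highest of the controls.

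The other 9 were scattered. In Erbb2-deficient tumor 5, Afg3l2 (14.41), Dgkq (64.84) and Bcas1os2 (102.3) were high and Ccna2 (360.2) was low. Ikzf3 was high in Erbb2-deficient tumor 3 (9.078), where the smooth muscle sum was low (238.1). Srrm1 was high in Erbb2-deficient tumor 2 (40.29) and Top2a in Erbb2-deficient tumor 4 (25.31). The sum of fetal-like and regenerative epithelium rows was high in control tumor 1 (87.25).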

How the results depend on the processing

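With all libraries, edgeR called 0 rows under every setting run, including each tumor left out in turn (0 to 0 rows), and limma called 0. DESeq2 called 26 rows on the 20 libraries and 9 on the tumors alone. Without control tumors 2 and 3, edgeR called 5 rows with no filter on low counts and 0 under its other settings (0 to 0 rows with a tumor left out), limma called 0, and DESeq2 called 3, or 13 on the tumors alone. The replicate number as a block gave 0 and 0 calls. Same-numbered tumors did not deviate together (correlations 0.0404, -0.0357, -0.26, 0.0396 and -0.144), so the numbers were not taken as pairs. Of 2120 values of single rows under other settings, 2068 kept their sign and were not called, 21 kept their sign and were called, all by DESeq2, and 31 turned. Log2 differences turned when control tumors 2 and 3 were left out for Erbb2 (-0.16), Grb7 (0.36), Ikzf3 (1.04), 1700003D09Rik (-0.28), Ccne1 (0.30), H2-Ab1 (0.0089) and Cd74 (0.31). With limma they turned for Erbb2 (-0.19), Grb7 (0.39), Ikzf3 (0.61), 1700003D09Rik (-0.072), Ccne1 (0.11) and Cd74 (0.30). Erbb2 also turned with no count filter (-0.013) and with the Tsix row class (-0.31). With 1 tumor left out in turn, the values ran from -0.32 to 0.28 for Erbb2, -0.12 to 0.00072 for Nrg4, -1.87 to 0.31 for Grb7, -2.51 to 0.23 for Ikzf3, -0.22 to 0.27 for 1700003D09Rik, -0.24 to 2.70 for Krt20 and -2.33 to 0.31 for Cd74. Krt20 was highest without control tumor 3. Grb7, Ikzf3 and Cd74 turned only without control tumor 2. Causes were not tested. Depth limits the table: the median tested row held 26.7 counts per library.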
